A study of Mus musculus with 2 samples.

Results

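Lgr5+ stem cells of the ileal crypt were identified in 2 droplet-based single-cell RNASeq libraries by their own transcripts. A cell was included when it held at least 1 unique molecular identifier (UMI, a tag that counts each captured mRNA molecule once) of Lgr5, at least 1 UMI of Ascl2, Smoc2, Tnfrsf19 or Msi1, and less than 0.5% of its UMIs from the Paneth cell gene Lyz1. Of 5408 cells, 674 passed, of which 359 were among 3402 wild type (WT) cells and 315 among 2006 knockout cells. The UMIs of these genes chose the cells, so the levels of these genes in them are a description.

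The libraries came from ileal epithelium of C57BL/6 mice aged 8 weeks, 1 library of the wild type and 1 of the TNFAIP8-/- genotype (TKO), a deletion of the gene that the study calls Tipe0. TNFAIP8 is a lipid transport protein of the TIPE family, and the libraries were made to compare the cell populations of the epithelium with and without it. According to the study, material of several mice was pooled before sequencing, and the matrices do not separate the animals. With 1 library per genotype no test was possible, so a difference of genotype cannot be told apart from a difference between the pools of mice, the preparations or the runs, and all intervals are 95% intervals that cover counting error only.

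Crypt base columnar stem cells sit between Paneth cells at the bottom of the crypt, divide frequently and renew the whole epithelium. Wnt ligands and R-spondins, the ligands of Lgr5, hold them in the stem cell state, Notch signals from neighbouring cells keep them from the secretory lineages, and BMP signals from the villus side oppose them. Ascl2 is a Wnt-driven transcription factor of these cells, Smoc2 a secreted matrix protein, Tnfrsf19 a receptor of the TNF receptor family, and Msi1 an RNA-binding protein.

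Lgr5 (chr10:115450311-115587780, minus strand, GRCm38) gave 695 UMIs in the WT and 691 UMIs in the TKO stem cells. Of the WT stem cells, 171 held 1 Lgr5 UMI, 101 held 2 and 87 held 3 or more. Of the TKO stem cells, 140 held 1, 78 held 2 and 97 held 3 or more. Many stem cells were thus admitted on a single Lgr5 molecule. Summed over the stem cells, Lgr5 stood at 161 counts per 1000000 UMIs (CPM, interval 149 to 173) in WT and 160 CPM (148 to 173) in TKO, against 9.59 and 11.8 CPM in all other cells.

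Smoc2 (chr17:14279506-14404790, plus strand) was the second marker most often present, in 87.7% of WT and 89.8% of TKO stem cells. Ascl2 was present in 41.8% and 41.9%, Msi1 in 37.3% and 46.3%, and Tnfrsf19 in 18.9% and 24.8%. Their summed levels were 180 and 172 CPM for Smoc2, 48.5 and 49.4 CPM for Ascl2, 39.5 and 47.7 CPM for Msi1, and 18.03 and 21.3 CPM for Tnfrsf19. In all other cells these 4 genes ranged from 2.49 to 51.6 CPM. Lyz1 was at 0 UMIs in 172 WT and 134 TKO stem cells. The cells nearest the Lyz1 limit held 0.485% and 0.487% just inside it, and 0.516% and 0.536% just outside. Between 0.25% and 0.5% there were 9 WT and 7 TKO cells, and between 0.5% and 1% 27 WT and 9 TKO cells.

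Olfm4 (chr14:79984081-80023139, plus strand), a secreted glycoprotein and a marker of these cells that the rule did not use, was at 28.9 CPM in WT and 17.4 CPM in TKO stem cells. In other cells it was at 3.31 and 4.19 CPM. After every cell was thinned to 3000 UMIs, 8.91% of WT and 6.98% of TKO stem cells held an Olfm4 UMI, against 1.18% and 1.71% of other cells and 0% of cells rich in Apoa1 and Apoa4, the apolipoprotein genes of mature enterocytes. A count of 0 allows a share of up to 1.76% of those 170 WT cells and 2.21% of those 136 TKO cells, taking 3 counts of the total as the limit. This limit is on cells with an Olfm4 UMI at this depth, not on cells that express the gene. Olfm4 was thus higher in the stem cells than in other cells in both libraries, but most stem cells had no Olfm4 UMI at this depth.

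Tnfaip8, the targeted gene, gave 61 UMIs in WT and 13 UMIs in TKO stem cells, or 14.1 and 3.01 CPM, a log2 ratio of -2.18 (-3.22 to -1.35). In all other cells it was at 9.20 and 2.25 CPM. The gene was lower but not at 0 in the library labelled TKO, and whether the counted 3' ends lie within the deleted part was not checked. Its family member Tnfaip8l1 was at 24.0 and 23.4 CPM in the stem cells.

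The stem cells made up 10.6% of the WT library (9.54 to 11.6) and 15.7% of the TKO library (14.1 to 17.4), a difference of 5.15 percentage points (3.28 to 7.08). Deep cells pass the rule more readily. With every cell thinned to 3000 UMIs, the share expected over all draws was 4.07% (3.43 to 4.79) in WT and 5.94% (4.94 to 7.06) in TKO, a difference of 1.87 points (0.673 to 3.14). Among cells with 3000 to 5000 UMIs the shares were 8.90% and 8.87%. Among cells with 5000 to 8000 UMIs they were 8.77% and 17.3%, and among those with 12000 to 20000 UMIs 11.8% and 21.7%. The share was higher in TKO in the ranges over 5000 UMIs, although at 8000 to 12000 UMIs (12.9% and 16.4%) the interval of the difference (-1.49 to 8.91 points) included 0. Of the cells with at least 1% of their UMIs from Apoa1 and Apoa4, 0 of 170 WT cells passed, which at 3 counts of the total allows a share of up to 1.76% (exact upper limit 2.15%), and 1 of 136 TKO cells (0.735%). Those cells had medians of 5053 and 5125 UMIs. These shares are relative to the cells recovered, so more stem cells and fewer other cells cannot be told apart.

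**Figure D1:**
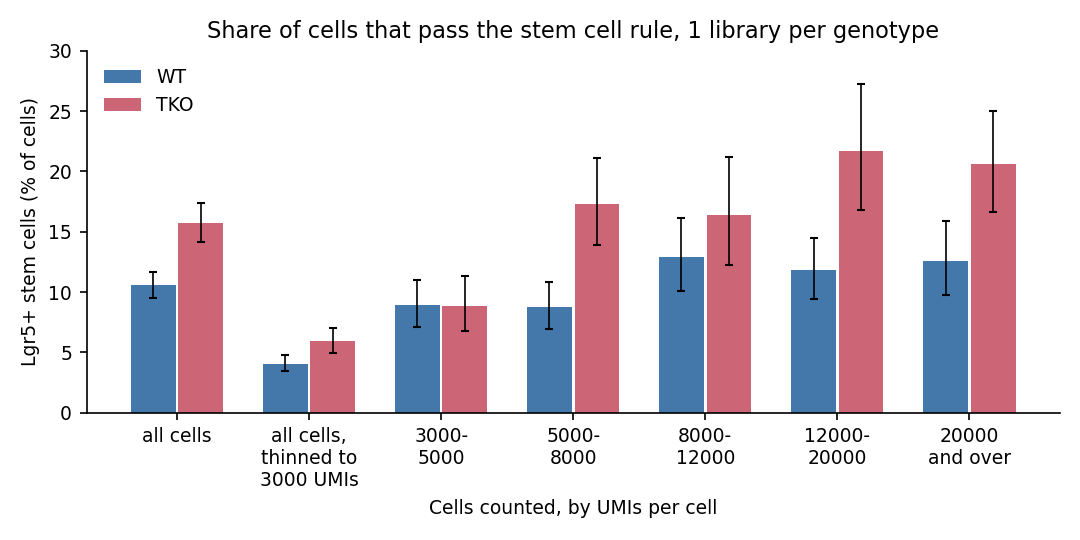
Share of cells that pass the stem cell rule (y axis, % of cells) in the WT and TKO libraries, for all cells, for all cells thinned to 3000 UMIs, and within 5 ranges of UMIs per cell (x axis). Bars are 1 library each and error bars are exact 95% binomial intervals, which cover counting error only; the TKO bar is the higher of the pair in all cells (15.7% against 10.6%) but not at 3000 to 5000 UMIs (8.87% against 8.90%).

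The stem cells were deeper than other cells, with a median of 9544 UMIs and 2770 genes in WT and 10178 UMIs and 2936 genes in TKO, against 7536 UMIs in other WT cells and 6892 in other TKO cells. Ribosomal protein genes took 27.4% and 27.9% of their UMIs, against 15.9% and 17.5% in other cells. The cells most like the stem cells were nearer to them. Cells with 0 Lgr5 UMIs, at least 2 UMIs of Mki67 plus Top2a and low Lyz1 were at 23.2% and 22.7%. These cycling cells were also deeper than the stem cells, with medians of 12043 and 11401 UMIs. Lgr5+ cells without a second marker were at 21.2% and 24.4%, and cells rich in Apoa1 and Apoa4 at 2.40% and 2.43%. Mitochondrial genes took 5.99% of the UMIs of WT and 8.22% of those of TKO stem cells, a difference also present in other cells (6.67% and 8.63%). The part of this difference in the results between libraries was not tested. Of the barcodes, 9 occurred in both libraries, 2 of them on TKO stem cells and 0 on WT stem cells.

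Markers of other cell types were present in the stem cells. The 19 enterocyte markers summed to 766 CPM in WT and 1225 CPM in TKO stem cells, against 11803 and 12644 CPM in other cells. The goblet cell markers summed to 7072 and 7906 CPM, with Spink4 the most abundant, against 19939.5 and 23378 CPM. The Paneth cell markers summed to 24509 and 14885 CPM, led by the defensin Defa24 at 15301 and 9542 CPM, against 71196 and 51727 CPM. Much of the Paneth cell signal came from few cells, with 69.8% of the WT and 79.1% of the TKO Defa24 UMIs in 5 stem cells, while some Defa24 was found in 359 WT and 307 TKO stem cells. The enterocyte markers took a median of 0.0418% of a cell's UMIs in WT and 0.0477% in TKO stem cells. Single genes among them were also held by few cells, such as Apoa1 with 70.1% and 70.3% of its UMIs in 5 stem cells. For the Paneth cell markers the medians were 0.215% and 0.161% in stem cells, and 0.182% and 0.0949% in other cells. Of the other cells, 0% in WT and 1.24% in TKO held no UMI of the Paneth cell list. How much of such low levels was free RNA captured with each cell was not tested. Paneth cell markers took at least 5% of the UMIs in 15 WT and 7 TKO stem cells, goblet cell markers at least 2% in 26 and 22, enterocyte markers at least 1% in 5 and 6, and enteroendocrine markers at least 1% in 5 and 3. Enteroendocrine markers summed to 478 and 349 CPM, against 319 and 386 CPM in other cells, and tuft cell markers to 166 and 105 CPM, against 189 and 101 CPM. Lymphocyte markers summed to 100 and 41.2 CPM and mesenchymal markers to 2.77 and 4.17 CPM.

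Against all other cells of the same library, the stem cells were high in markers of crypt stem cells and low in the genes of digestion and absorption. Of 10764 genes with at least 100 UMIs, 469 (4.36%) were at least 2-fold higher in the stem cells in both libraries, and 566 (5.26%) at least 2-fold lower. The median gene was 0.30 higher on the log2 scale in WT and 0.21 in TKO. Totals computed without the mitochondrial and the 20 most abundant genes gave medians of 0.05 and 0.02, and with them 244 genes were higher and 722 lower. The cells were chosen from these same counts, so the contrast is a description.

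Of 33 measured stem cell markers outside the rule, 27 were at least 2-fold higher in both libraries and 0 lower. The shares of all genes were 4.36% and 5.26%. These markers had median log2 ratios of 1.64 in WT and 1.45 in TKO. On the totals without abundant genes, 22 were higher. Slc12a2, the basolateral Na-K-Cl cotransporter, was the most abundant of those named here, at 617 CPM in WT and 779 CPM in TKO stem cells against 179 and 266 CPM in other cells. Igfbp4, a secreted binder of insulin-like growth factors, was at 126 and 125 CPM against 34.5 and 34.6 CPM. Cdca7, a chromatin factor of dividing cells, was at 195 and 215 CPM, with log2 ratios of 1.86 and 1.59. The remaining high markers included Soat1, which esterifies cholesterol (log2 ratios of 1.95 and 1.89), Rgmb, a BMP co-receptor (1.86 and 1.64), and Mex3a, an RNA-binding protein of slowly dividing crypt cells (15.7 and 11.8 CPM against 4.17 and 2.76 CPM). Scn2b, a sodium channel subunit, had the most even ratios, 2.41 and 2.42. Znrf3, Ephb2, Prom1, Cyp2e1, Vdr and Hes1 did not reach 2-fold in both libraries. Prom1, a membrane protein found along much of the crypt, was at 176 and 137 CPM against 93.2 and 87.4 CPM.

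With the genes of the rule left out, the 15 genes with the largest ratios among those at 100 CPM or more were Sox4, Igfbp4, Bex1, Ifitm3, Axin2, Cdca7, Slc12a2, Cd44, Cdk6, Zfos1, Pdgfa, Cnn3, Cd81, Sox9 and Clca3b. Sox4, a transcription factor of early progenitors, came first among these at 205 CPM in WT and 193 CPM in TKO stem cells against 50.8 and 53.3 CPM. Bex1, a small adaptor protein, was at 168 and 245 CPM against 37.1 and 68.3 CPM. Cdk6, a cyclin D-dependent kinase of the G1 phase, was at 155 and 168 CPM with log2 ratios of 1.99 and 1.45. Cd44, a hyaluronan receptor and Wnt target, was at 138 and 118 CPM (1.94 and 1.49). Ifitm3, an interferon-induced membrane protein, was at 1821 CPM in WT but 447 CPM in TKO stem cells, and in both libraries it was above the other cells, which were at 474 and 134 CPM. Stem cells therefore stood above other cells for Ifitm3 in each library, on levels that differed between the libraries.

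**Figure D2:**
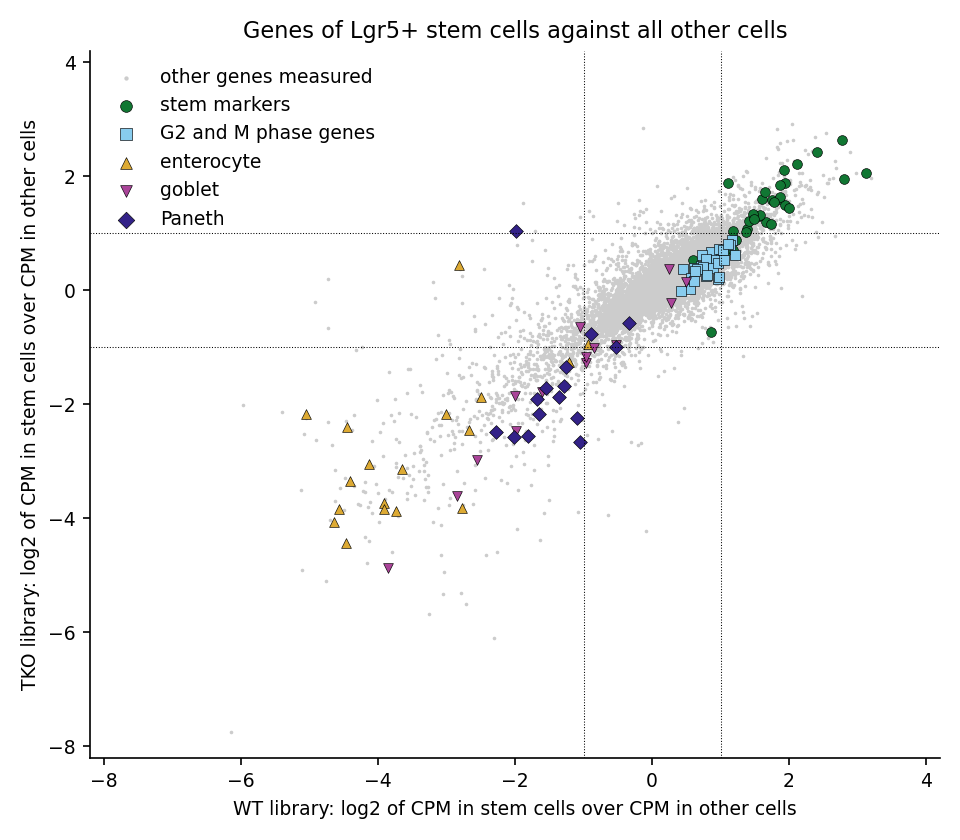
Log2 ratio of CPM in Lgr5+ stem cells over CPM in all other cells, in the WT library (x axis) and the TKO library (y axis). Each point is 1 of 10764 genes, 5 gene lists are coloured and dotted lines mark 2-fold; most stem markers lie in the upper right, and 16 of 18 enterocyte markers lie beyond 2-fold in the lower left.

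In the Wnt pathway, several target and feedback genes were higher in the stem cells. Axin2, a scaffold of the complex that degrades beta-catenin and itself a Wnt target, was at 144 CPM in WT and 192 CPM in TKO stem cells against 47.4 and 63.6 CPM in other cells. Rnf43, the ubiquitin ligase that removes Frizzled receptors, was at 53.2 and 61.4 CPM against 15.8 and 20.6 CPM. Of 20 Wnt target genes measured, 7 were at least 2-fold higher (Axin2, Rnf43, Sox9, Myc, Cd44, Ephb3 and Sp5) and 1 lower (Bambi), with medians of 0.65 and 0.61. Sox9, a transcription factor of the crypt base, was at 191 and 233 CPM (1.42 and 1.22), and Myc, a driver of growth and ribosome production, at 47.9 and 86.9 CPM (1.54 and 1.33). Ephb3, a receptor that positions cells along the crypt, had log2 ratios of 1.64 and 1.72. Of 10 Wnt receptors and co-receptors, 2 were higher, Fzd2 (1.83 and 2.03) and Ror2 (2.59 and 1.95), with medians over the list of 0.51 and 0.60. Of 20 intracellular components, 0 were higher and 0 lower. These counts stand beside 4.36% of all genes higher and 5.26% lower.

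Sp5, a transcription factor that Wnt signals induce, was at 21.7 and 19.7 CPM against 4.64 and 3.57 CPM. Its promoter and that of Tnfrsf19, a gene of the rule, hold letters that TCF/LEF factors, the DNA-binding partners of beta-catenin, are known to bind. The windows, from RefSeq on GRCm38.p6, are written 5′ to 3′ in the direction of the gene, with those letters in capitals.
Sp5: ggcaaggccccCTTTGATcaggaaaatcc
Tnfrsf19: ctgaatgggggATCAAAGtgacaaactag
The Sp5 letters begin 104 bases before the start site, in the promoter at chr2:70474673-70474972 on the plus strand, and those of Tnfrsf19 begin 202 bases before it, in the promoter at chr14:61037938-61038237 on the minus strand. The letters CTTTGAT or CTTTGAA were searched on both strands, from 250 bases before to 50 bases after each start. They were found in 5 of 26 promoters of the Wnt target list (19.2%, 18 genes matched, with 1 match counted in both of the overlapping Mmp7 promoters), in 3 of 34 of the stem marker list (8.82%, 26 genes matched), in 6.06% of promoters of the genes measured and in 8.65% of all 32851 promoters. The stem markers thus held the letters at about the share of all promoters. A match does not show binding, and Lgr5 itself was not among the promoters matched.

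Of the Notch receptors and ligands, Notch1 and Notch2 were at least 2-fold higher in the stem cells. Notch1 was at 46.5 CPM in WT and 52.4 CPM in TKO stem cells against 13.0 and 17.7 CPM in other cells, and Notch2 at 15.03 and 18.1 CPM against 5.65 and 8.68 CPM. These were 2 of 6 measured, against 4.36% of all genes, and 1 passed on the totals without abundant genes. Of 16 transducers and targets, 3 were higher, namely Lfng, a glycosyltransferase that modifies Notch (9.71 CPM in WT against 3.46 CPM), Maml3, a co-activator (10.6 CPM in WT against 5.35 CPM), and Olfm4. Maml3 lay at the 2-fold limit in WT and passed it only with the 0.5 added to each sum. Among 12 regulators of the secretory lineages, Sox4 and Foxa2 were higher. Among 14 regulators of the absorptive lineage, 0 were higher and 4 lower, among them Maf, Prdm1 and Nr1h4, where 5.26% of all genes were lower. On the totals without abundant genes 2 of the transducers and targets and 1 of the secretory regulators were higher.

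Components of the BMP, growth factor and Hippo pathways mostly lay within 2-fold. Among all genes, 4.36% were higher and 5.26% lower. Of 18 BMP genes, Rgmb was higher, while Bmp2, a ligand of villus cells, was at 3.70 and 3.24 CPM against 17.4 and 14.8 CPM, and Smad7 and Bambi, both inhibitors that the pathway induces, were also lower. Of 17 genes of the EGF receptor pathway, Lrig1, an inhibitor of the receptor, was higher at 58.0 and 48.9 CPM (1.74 and 1.17), as was Etv5. The ligands Areg, Ereg and Hbegf and the phosphatase Dusp6 were lower. Of 38 genes of the PI3K/Akt pathway, 1 was higher and 1 lower, not above those shares of all genes. Igf1r, the receptor of insulin-like growth factors, was at 74.9 and 90.6 CPM against 25.6 and 37.1 CPM. Cdkn1a, an inhibitor of cyclin-dependent kinases that the pathway restrains, was at 22.7 and 24.1 CPM against 132 and 105 CPM. Of 13 YAP pathway genes, Amotl1 was higher (2.02 and 1.90) and Lats2 lower.

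Genes of the fetal-like, injury-associated state were low. Of 7 measured, 0 were higher and 4 lower (Ly6a, Anxa2, Anxa3 and Sprr1a), with medians of -1.66 in WT and -1.39 in TKO. Ly6a, the gene of the surface protein Sca-1, was at 49.7 CPM in WT and 7.42 CPM in TKO stem cells, against 234 and 35.2 CPM in other cells. Of 8 markers assigned to reserve stem cells, Hopx, Lrig1, Mex3a and Sox9 were higher and Krt19 lower, where 4.36% of all genes were higher and 5.26% lower, and on the totals without abundant genes 2 were higher. Hopx, a homeodomain protein without DNA binding, was at 42.5 and 41.7 CPM (1.40 and 1.01), so the last value lay at the 2-fold limit. Bmi1, a Polycomb protein, was at 18.3 and 20.9 CPM against 11.4 and 13.4 CPM, within 2-fold.

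Proliferation genes were compared between stem cells and other cells in 2 lists. Of 29 S phase genes, Cdt1 and Pola1 were at least 2-fold higher in both libraries, with medians over the list of 1.08 and 0.73, and 0 passed on the totals without abundant genes. Of 30 G2 and M phase genes, 0 passed, with medians of 0.81 and 0.45, whereas 5 passed when levels were means of per-cell CPM and 0 on the totals without abundant genes. Among all genes 4.36% were higher. Top2a, a topoisomerase of dividing cells, was at 419 and 386 CPM against 195 and 220 CPM, and Mki67, which coats mitotic chromosomes, at 95.7 and 96.6 CPM against 50.03 and 67.4 CPM. The other cells include 958 WT and 577 TKO cycling cells without Lgr5, so the comparison is with a population that divides too.

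The genes lowest in the stem cells were those of the villus. The 10 named by size were Tmigd1, Saa1, Slc10a2, Sis, Slc13a1, Zg16, Enpep, Anpep, Fabp6 and Apoa1. Fabp6, the ileal bile acid binding protein, was at 344 CPM in WT and 602 CPM in TKO stem cells against 8164 and 8591 CPM in other cells. Sis, the sucrase-isomaltase of the brush border, was at 4.85 and 7.65 CPM against 125 and 130 CPM. Slc10a2, which takes up bile acids, was at 7.63 and 6.95 CPM against 135 and 149 CPM. The peptidase Anpep was at 31.0 and 30.8 CPM against 470 and 444 CPM, and the peptidase Enpep at 8.55 and 16.5 CPM against 197 and 239 CPM. Zg16, a lectin of goblet cells, was at 110 and 144 CPM against 1585 and 4203 CPM. Of the marker lists, 16 of 18 enterocyte genes, 11 of 15 Paneth cell genes and 6 of 14 goblet cell genes were lower, the last being 11 with means of per-cell CPM and 9 on the totals without abundant genes. Among all genes, 5.26% were lower and 4.36% higher. Of 13 tuft cell genes, 0 were higher and 0 lower.

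Hormone genes were an exception among the differentiation markers. Chgb, Gcg, Cck and Ghrl were at least 2-fold higher in the stem cells, and Nts lower, of 13 measured, with 2 higher and 2 lower as means of per-cell CPM. The shares of all genes were 4.36% higher and 5.26% lower. Gcg, which encodes the glucagon-like peptides, was at 61.7 and 114 CPM against 17.3 and 20.4 CPM. In the stem cells 98.9% of the WT and 99.2% of the TKO Gcg UMIs came from 5 cells, and Chgb was similarly held, with 84.8% and 77.5% in 5 cells. These values therefore describe a few hormone-rich cells that pass the rule.

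Of 8 MHC class II genes measured, 2 were at least 2-fold higher in the stem cells than in other cells and 0 lower. Among all genes, 4.36% were higher and 5.26% lower. On the totals without abundant genes 1 class II gene was higher and 1 lower. H2-Eb1, a chain of the class II molecule, was at 639 CPM in WT and 246 CPM in TKO stem cells against 304 and 116 CPM. Ciita, the transactivator of the class II genes, was at 22.9 and 10.7 CPM against 9.20 and 3.12 CPM. The list's medians were 0.69 and 0.77, beside 0.30 and 0.21 for all genes. The cells rich in Apoa1 and Apoa4 were higher still, with the class II list at 6426 and 2538 CPM, against 4698 and 1872 CPM in the stem cells. Of 23 interferon response genes, Ifitm3 was higher and 6 were lower (Irf7, Isg15, Ifit1, Ifit3, Zbp1 and Ubd). The shares of all genes were again 4.36% higher and 5.26% lower.

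Cells just outside the rule differed from the stem cells in both directions. Lgr5+ cells without a second marker, 102 in WT and 40 in TKO, had medians of 5373 and 5576 UMIs, and their Lgr5 level of 151 and 159 CPM, like that of the stem cells, was fixed in part by the rule. Their stem marker list summed to 2127 and 2897 CPM, against 3434 and 3837 CPM in the stem cells. Their tuft cell markers summed to 1213 and 384 CPM. The 94 WT and 77 TKO cells that met the UMI criteria but exceeded the Lyz1 limit were deep, with medians of 24004 and 28966 UMIs, and Paneth cell markers took 341796 and 262296 CPM in them. Their Lgr5 level was 64.0 and 73.7 CPM. Cells with 0 Lgr5 UMIs, at least 2 UMIs of Mki67 plus Top2a and low Lyz1 numbered 958 and 577. In these cycling cells the stem marker list was at 1559 and 1832 CPM. Their G2 and M phase list, at 4059 and 4084 CPM, was fixed in part by the choice of cells, since Mki67 and Top2a belong to it.

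**Figure D3:**
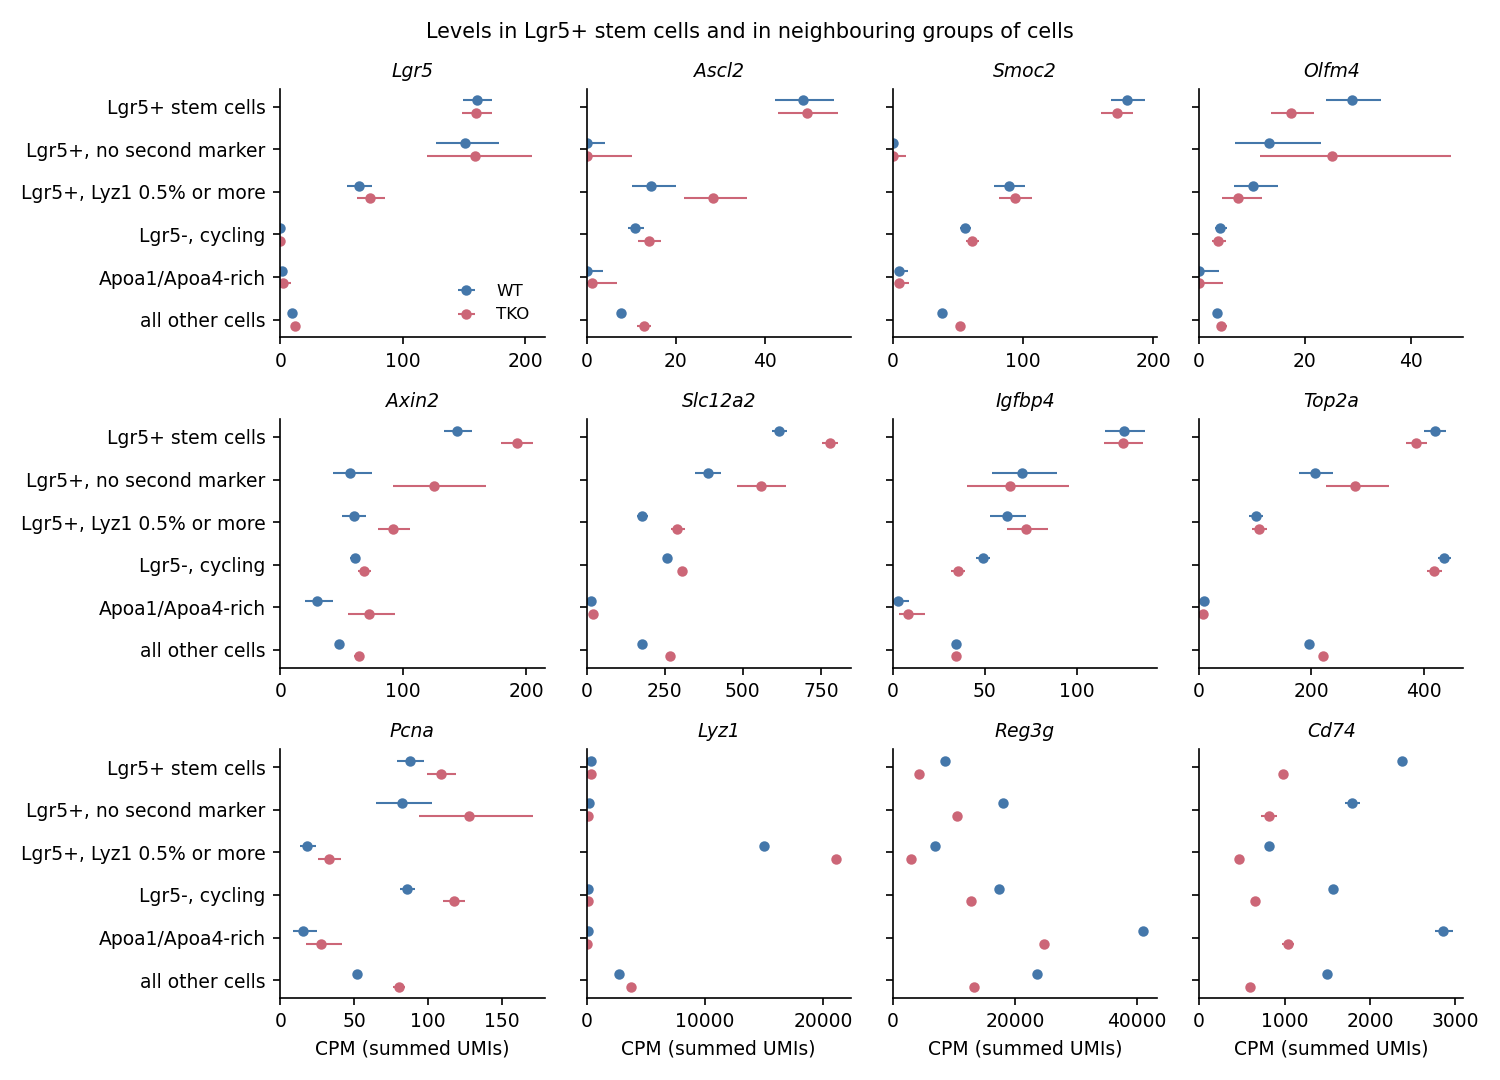
Levels of 12 genes (x axes, CPM of summed UMIs, each panel with its own scale) in the stem cells and 5 other groups of cells (rows), in the WT and TKO libraries. Points are 1 library each and lines are exact 95% counting intervals, with some narrower than the point; Axin2, Slc12a2 and Igfbp4 are highest in the stem cells, the Top2a level of the Lgr5- cycling cells follows from their choice by Mki67 and Top2a UMIs, and Cd74 is lower in TKO in all 6 groups.

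Between the libraries, genes of MHC class II presentation and of the interferon response were lower in the TKO stem cells. Within the stem cells 7300 genes had at least 100 UMIs, with a median log2 ratio of TKO over WT of 0.07, against 0.14 for the same genes in other cells. Relative to that median, 194 genes (2.66%) were at least 1.5-fold higher in TKO and 258 (3.53%) at least 1.5-fold lower. Read without subtracting the median, 300 were higher and 192 lower. Of the 194 higher genes, 47 were past the same fold in other cells, and of the 258 lower genes, 115 were. In other cells 18 and 16 of them had the opposite sign. Most of the genes called between TKO and WT stem cells, in either direction, thus had the same sign in the rest of the epithelium. Most of them were not past the fold there, however. The shares of all 7300 genes past the fold in other cells, or of the same sign in both, are not given here for comparison.

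All MHC class II chains measured were lower in TKO stem cells. Cd74, the invariant chain that guides class II molecules, was at 2380 CPM in WT and 984 CPM in TKO, a log2 ratio of -1.27 (-1.33 to -1.22). H2-Ab1 (chr17:34257689-34269419, plus strand), a beta chain, was at 835 and 285 CPM, a log2 ratio of -1.55 (-1.65 to -1.46). H2-Aa was at 566 and 212 CPM (-1.42) and H2-Eb1 at 639 and 246 CPM (-1.37). H2-DMa and H2-DMb1, which load peptides, were at -1.15 and -1.28, and Ciita was at 22.9 and 10.7 CPM, with -1.09 (-1.64 to -0.58). In this list of 8 genes 7 passed the fold, and Ctss, a lysosomal protease, did not, at 34.7 and 38.5 CPM. Among all genes, 3.53% were lower. The list's median was -1.28 in stem cells and -1.36 in other cells, so the difference was of nearly the same size outside the stem cells.

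MHC class I genes differed less. Of 14 measured, 9 were lower and 0 higher, where 3.53% of all genes were lower and 2.66% higher. The list's median was -0.63 in stem cells and -0.43 in other cells. B2m, the light chain, was at 1363 and 875 CPM (-0.64), H2-K1 at 648 and 420 CPM (-0.62), and H2-D1 at 433 and 242 CPM (-0.84). The subunit Psmb8 of the immunoproteasome, which cuts peptides for class I molecules, was at 370 and 118 CPM, a log2 ratio of -1.65 (-1.79 to -1.50), against -1.20 in other cells. The peptide transporter Tap1 was at 60.1 and 24.3 CPM (-1.30).

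Of 15 interferon response genes measured, 11 were lower and 0 higher, where 3.53% of all genes were lower and 2.66% higher. The list's median was -1.24 in stem cells and -1.12 in other cells. Lymphocyte markers stood beside the interferon and MHC genes at 100 and 41.2 CPM in stem cells and 275 and 73.9 CPM in other cells. Their most abundant gene was the chemokine Ccl5, at 45.8 and 16.2 CPM in stem cells, and their part in the result was not tested. Ifitm3 (chr7:141009586-141010770, minus strand) was at 1821 and 447 CPM, a log2 ratio of -2.03 (-2.10 to -1.96). After thinning to 3000 UMIs, 94.99% of WT and 56.2% of TKO stem cells held an Ifitm3 UMI, against 5.29% and 3.68% of cells rich in Apoa1 and Apoa4. The GTPases Iigp1 (26.4 and 4.63 CPM), Igtp (39.3 and 9.73 CPM) and Irgm2 (25.7 and 6.26 CPM), of a family that acts against intracellular pathogens, were all lower. Isg15, a ubiquitin-like protein, was at 26.8 and 5.33 CPM, and Bst2, which tethers virus particles, at 103 and 40.6 CPM. Ifitm2, a close paralog of Ifitm3, was at 664 and 599 CPM, within the fold, and how reads common to the paralogs were counted was not checked. Irf8, Irf9 and Irgm1 also lay within the fold.

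The promoters of many of these genes hold a pair of GAAA blocks spaced as in the interferon-stimulated response element. The letters TTTC, any 2 bases and again TTTC were searched on both strands of the RefSeq promoters (GRCm38.p6). They are shown in capitals, with overlapping matches joined, for 4 genes that were lower and for Ifitm2, which was not.
Isg15: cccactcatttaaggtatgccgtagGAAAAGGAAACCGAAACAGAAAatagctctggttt
Irgm2: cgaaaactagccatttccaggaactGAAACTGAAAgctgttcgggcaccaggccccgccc
Igtp: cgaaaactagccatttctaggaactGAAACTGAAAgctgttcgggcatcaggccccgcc
Bst2: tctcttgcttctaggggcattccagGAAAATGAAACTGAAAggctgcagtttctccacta
Ifitm2: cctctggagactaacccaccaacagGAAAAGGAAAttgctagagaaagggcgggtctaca
These windows lie at chr4:156200862-156200921 (minus strand), chr11:58214888-58214947 (plus), chr11:58199497-58199555 (plus), chr8:71537568-71537627 (minus) and chr7:140955973-140956032 (minus). The letters were in 15 of 26 promoters of the interferon list (57.7%, 22 of 27 genes matched), against 3.44% of all promoters. Among the genes measured they were in 2.73% of promoters, in 14 of 228 promoters of genes lower in TKO (6.14%) and in 4 of 187 of genes higher (2.14%). This search was chosen after the levels had been seen. The Irgm2 and Igtp windows are nearly identical, and of the 15 interferon genes with the letters 5 were lower in TKO, 2 (Ifitm2 and Irgm1) lay within the fold and 8 were not measured.

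The 12 lowest genes in TKO stem cells at 100 CPM or more were Retnlb, Cd177, Ceacam10, Ifitm3, Ang4, Mptx2, AA467197, Psmb8, Chgb, H2-Ab1, Gm15284 and H2-Aa. Cd177, a surface glycoprotein best known from neutrophils, was at 130 CPM in WT and 26.0 CPM in TKO, a log2 ratio of -2.32 (-2.63 to -2.03). The 5 richest cells held 7.10% of its WT and 19.6% of its TKO UMIs, and without them it was at 121 and 20.9 CPM. Ceacam10, a member of the carcinoembryonic antigen family, was at 121 and 27.3 CPM (-2.14). Retnlb, the goblet cell protein resistin-like beta, was at 152 and 26.0 CPM, but 43.6% of the WT and 89.3% of the TKO UMIs came from 5 cells. Among stem cells without a UMI of Mki67 or Top2a (54 WT, 67 TKO) the direction turned for Retnlb (3.15 relative to the median), Ang4 (1.53) and AA467197 (0.17).

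Paneth cell genes in this group rested on few cells. Mptx2, a pentraxin, had 89.7% and 91.1% of its UMIs in 5 stem cells of each library, Gm15284, a defensin gene, 82.6% and 86.1%, and the antimicrobial ribonuclease Ang4 66.5% and 79.2%. Of 12 Paneth cell markers measured, 10 were lower in TKO stem cells, where 3.53% of all genes were lower. The list's median was -0.67 in stem cells and -0.46 in other cells. After thinning to 3000 UMIs the list's median relative to all genes was 0.29, and among stem cells without a UMI of Mki67 or Top2a it was 2.34, so its direction depended on which cells were taken. Reads of the defensin genes, which are close copies, may be split between them. Reg3g, an antibacterial lectin that enterocytes also express, was at 8583 and 4343 CPM in stem cells and 23541 and 13368 CPM in other cells. Ly6a was at 49.7 and 7.42 CPM, a log2 ratio of -2.73, the same as in other cells.

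The 12 highest genes in TKO stem cells, among those at 100 CPM or more in TKO, were Fabp2, mt-Nd4l, Oat, Gcg, Ccnd2, Fabp6, Gm10076, Aqp1, 2200002D01Rik, Otc, Gas6 and Hes1. Oat, an aminotransferase of ornithine metabolism, was at 487 CPM in WT and 900 CPM in TKO, a log2 ratio of 0.89 (0.81 to 0.96), against 0.94 in other cells. Otc, of the same metabolic route, was at 78.8 and 131 CPM (0.74), against 0.75 in other cells. Ccnd2, a D-type cyclin that partners Cdk4 and Cdk6, was at 317 and 560 CPM, a log2 ratio of 0.82 (0.73 to 0.92), against 0.47 in other cells. Aqp1, a water channel, was at 93.6 and 161 CPM (0.78) and Gas6, a ligand of TAM receptors, at 71.9 and 118 CPM (0.71). Hes1, the transcriptional repressor that Notch induces, was at 106 and 172 CPM, a log2 ratio of 0.70 (0.53 to 0.87), against 1.05 in other cells. For these genes other cells differed in the same direction.

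Enterocyte genes among the highest were partly held by few cells. Fabp2, the intestinal fatty acid binding protein, was at 97.1 and 283 CPM, a log2 ratio of 1.54 (1.38 to 1.71), and at 81.6 and 175 CPM without the 5 richest cells of each library. Fabp6 was at 344 and 602 CPM, but at 185 and 200 CPM without its 5 richest cells. Relative to the median its direction turned after thinning (-0.51), with at least 2 Lgr5 UMIs (-0.072) and with no second marker required (-0.92). Gcg was found in 8 WT and 8 TKO stem cells, and at -0.55 relative to the median its direction turned when cells rich in markers of another class were left out. Of 9 enteroendocrine markers measured 2 were higher and 6 lower in TKO, where 2.66% of all genes were higher and 3.53% lower. The list's median was -0.99 in stem cells and -0.25 in other cells. Relative to all genes, however, it was 1.12 among stem cells without a UMI of Mki67 or Top2a. The mitochondrial gene mt-Nd4l, at 147 and 308 CPM, stood beside the higher mitochondrial share of the TKO library.

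**Figure D4:**
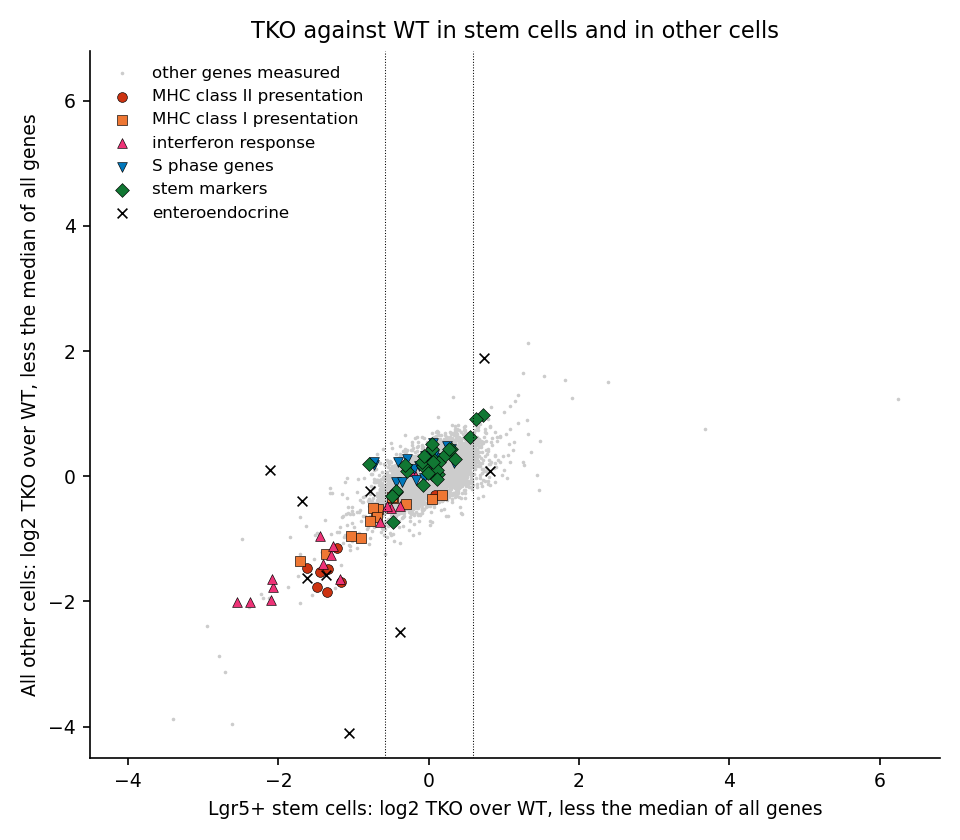
Log2 ratio of TKO over WT, less the median of all genes, in Lgr5+ stem cells (x axis) and in all other cells (y axis), from 1 library per genotype. Each point is 1 of 7300 genes, 6 gene lists are marked and dotted lines show 1.5-fold in stem cells. Most MHC class II, MHC class I and interferon genes lie to the lower left, and stem markers lie mostly between the dotted lines. In stem cells 1 of 8 class II and 2 of 14 class I genes lie above the median.

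Of 28 stem cell markers measured, Aqp1 and Hes1 were higher in TKO and Olfm4 lower, where 2.66% of all genes were higher and 3.53% lower, with a median of 0.11 in stem cells and 0.35 in other cells. Olfm4 had a log2 ratio of -0.73 (-1.17 to -0.31) in stem cells and 0.34 (-0.09 to 0.76) in other cells, on 125 and 75 UMIs. Of 16 intracellular Wnt components 0 passed the fold, with a median of 0.21, and of 17 Wnt targets Myc and Id2 were higher and Nos2 lower. Myc was at 47.9 and 86.9 CPM, a log2 ratio of 0.86 (0.61 to 1.11), against 1.06 in other cells. Axin2 was at 144 and 192 CPM (0.42) and Ctnnb1, beta-catenin itself, at 332 and 399 CPM (0.27), both within the fold. Fzd2 was the receptor that passed, at 8.78 and 14.4 CPM.

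Of 8 regulators of the secretory lineages 3 were higher and 1 lower in TKO, with a median of -0.05, beside 2.66% and 3.53% of all genes. Of 3 Notch receptors and ligands 1 was higher. Dll1, a Notch ligand of secretory progenitors, was at 15.3 and 27.1 CPM (0.82), and Atoh1, the factor that sets secretory fate, at 22.4 and 35.7 CPM (0.67). Foxa2 was also higher and Spdef, a goblet and Paneth cell factor, lower, at 22.9 and 13.7 CPM. Of 10 BMP genes 1 was higher (Id2), and of 7 EGF receptor pathway genes 1 (Lrig3).

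In the PI3K/Akt pathway, which TIPE proteins act on, 1 of 33 genes was higher and 0 lower, near the 2.66% of all genes that were higher, with a median of 0.15 in stem cells and 0.17 in other cells. The gene was Insr, the insulin receptor, at 23.1 and 37.1 CPM, a log2 ratio of 0.68 (0.31 to 1.06). Akt1 was at 95.9 and 100 CPM. Levels of mRNA do not show the activity of this pathway.

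Cell cycle genes differed between stem cells and other cells in how they compared across libraries. The S phase list had a median of 0.02 in stem cells and 0.33 in other cells, and the G2 and M phase list -0.19 in stem cells and 0.16 in other cells. Of 29 S phase genes Cdc6 and Chaf1b were lower, and of 29 G2 and M phase genes Aurka, Plk1 and Hmmr were lower, where 3.53% of all genes were lower. Plk1, a mitotic kinase, was at 61.7 and 41.7 CPM, a log2 ratio of -0.56 (-0.85 to -0.29), against -0.03 in other cells. Mcm6, of the replicative helicase, was at 146 and 188 CPM (0.36), within the fold. No test of the difference between stem and other cells was possible.

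Of 17 genes of fatty acid oxidation and ketogenesis, 2 were higher and 0 lower in TKO stem cells, against 2.66% and 3.53% of all genes, with a median of 0.29 in stem cells and 0.15 in other cells. Among them Cpt2, which acts in the mitochondrial import of fatty acids, was at 26.6 and 45.4 CPM, a log2 ratio of 0.77 (0.43 to 1.12), against 0.26 in other cells. Of 15 glycolysis genes 0 passed, with a median of -0.14. Nnt, which is disrupted in the C57BL/6J substrain, was at 23.6 and 59.3 CPM in stem cells and 10.7 and 37.1 CPM in other cells. The Y-linked gene Eif2s3y was at 18.3 and 36.1 CPM, and Xist gave 1 UMI in WT and 0 in TKO stem cells. The part of substrain or of the mice in each pool in these results was not tested.

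Among single stem cells, the MHC class II difference was spread over the population and not held by a subset. The list took a median of 0.480% of a cell's UMIs in WT, with an interquartile range of 0.357% to 0.610%, and 0.197% in TKO (0.137% to 0.258%). The interquartile ranges did not overlap, although the full distributions did. The interferon list took medians of 0.325% and 0.134%. S phase genes took 0.170% and 0.185%, and G2 and M phase genes 0.326% and 0.279%, with wide overlap.

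**Figure D5:**
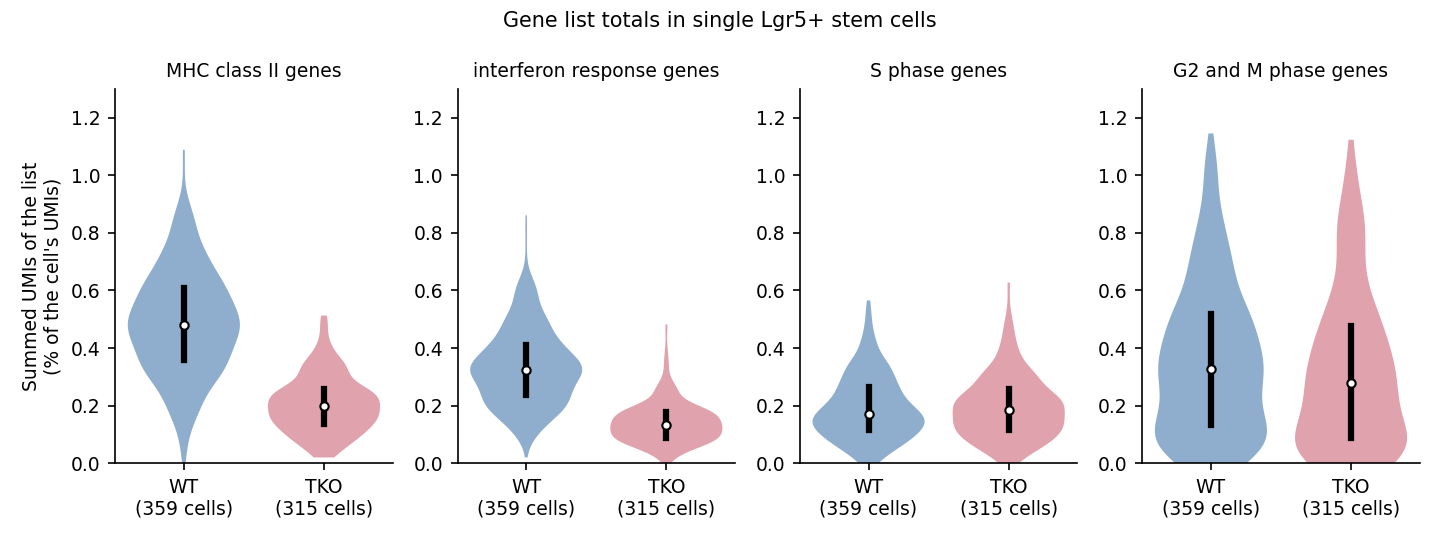
Summed UMIs of 4 gene lists in each Lgr5+ stem cell (y axes, % of the cell's UMIs) in 359 WT and 315 TKO cells (x axes). Shapes show the distribution over cells, black bars the interquartile range and white points the median; the MHC class II median is 0.480% in WT and 0.197% in TKO, whereas the S phase medians are 0.170% and 0.185%.

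Stem cells were also split by proliferation transcripts. A UMI of Mki67 or Top2a was present in 305 of 359 WT and 248 of 315 TKO stem cells. After thinning to 3000 UMIs, 249 WT stem cells had such a UMI and 110 did not, and in TKO 186 did and 129 did not. The G2 and M phase list, which contains both genes of the split, was at 4675 CPM in the first and 1382 CPM in the second in WT, and at 4629 and 1302 CPM in TKO. The MHC class II list was at 4896 and 4900 CPM in WT, and at 2030 and 2181 CPM in TKO. The levels of this split are not on the scale of the summed CPM of all stem cells (4698 and 1872 CPM for class II), where deep cells weigh more. In the 54 WT and 67 TKO stem cells with 0 UMIs of both genes before thinning, the class II list's median log2 ratio of TKO over WT, relative to all genes, was -1.08, against -1.34 in all stem cells. Across cells, the class II list and the G2 and M phase list had Spearman's rho of -0.02 in 359 WT cells and -0.09 in 315 TKO cells, given as a description since the values of a cell share its depth.

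The stem marker list was higher in cells with more Lgr5 UMIs. With 1, 2 and 3 or more Lgr5 UMIs it stood at 2910, 3819 and 4044 CPM in WT, and at 3283, 3751 and 4685 CPM in TKO. The MHC class II list was at 4240, 4951 and 5314 CPM in WT, and at 1668, 1890 and 2149 CPM in TKO. Median depth did not follow the Lgr5 count, at 10343, 8625 and 9423 UMIs per cell in WT and 9883, 8094 and 11144 in TKO. At each Lgr5 count the class II list was lower in TKO.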

How the data were processed

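The authors prepared the libraries with 10x Genomics 3' v2 chemistry, aligned the reads to mm10 (GRCm38), counted UMIs with Cell Ranger and deposited raw UMI counts of 27998 genes. The WT matrix holds 3402 cells with 38127808 UMIs and the TKO matrix 2006 cells with 23897126 UMIs. The labels name collagenase and dispase for digestion, the methods DNase I and dispase. The members and the gene lists were chosen with earlier results of these data known.

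UMIs were summed over cells as CPM (numpy 2.4.6, scipy 1.17.1, pandas 2.3.3, Python 3.11.15), with exact Clopper-Pearson intervals for shares and exact binomial intervals for ratios, and 0.5 added to each sum in log2 ratios. Genes needed 100 UMIs. Ranked genes were the 15 highest and 10 lowest in members, by the library nearer 0, and the 12 highest and 12 lowest in TKO, at 100 CPM or more. Genes of the rule were not ranked. They, Tnfaip8 and list genes were also named. No cell was left out. Scrublet (scanpy 1.11.5) called 15 WT cells (0.441%) and 3 TKO cells (0.150%) and was taken to have failed, since it marked under 0.5%. Promoters were those of RefSeq, GRCm38.p6. Counts were also simulated with counting error alone, without variation between cells, mice or libraries. The shares called in them are therefore not error rates for the genes called in the data. In simulated counts for the comparison of libraries (7273 genes), 96.7% of changes of 1 on the log2 scale and 0.747% of unchanged genes were called. For members against other cells (10766 genes), where 1 is the threshold itself, 25.5% of changes of 1, 98.99% of changes of 2 and 0.00946% of unchanged genes were called. Some genes of the lists are not reported here.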

Additional observations from a re-analysis of the deposited data

How the results depend on the processing

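The higher share of stem cells in TKO, the lower MHC class II, MHC class I and interferon lists in TKO stem cells and the direction of the 25 ranked genes between stem cells and other cells were kept in each alternative run for them, although the share was not higher in TKO among cells with 3000 to 5000 UMIs (8.87% against 8.90%), and for Lgr5 alone the interval of the difference included 0 in 1 thinning draw (-0.354 to 2.81 points) but not in the expectation over draws (0.696 to 3.92 points). The MHC class II list's median, relative to all genes, ranged from -1.37 to -1.08 and the interferon list's from -1.44 to -0.85. The causes of the changes that follow were not tested, beyond the fewer cells or genes that a setting leaves.

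With 1 draw of 3000 UMIs per cell the shares were 4.26% and 5.58% (difference 1.32 points), and 126 genes were higher and 111 lower in TKO. The expected share over all draws, added after the data were seen, was 4.07% and 5.94% (1.87 points). With the UMIs split, the rule was applied to 1 part and levels were read from the other. The shares were then 5.38% and 8.87%, and 311 genes were higher in stem cells than in other cells. Between the libraries 147 genes were higher and 127 lower in TKO, whereas the main setting gave 194 higher and 258 lower. At least 2 Lgr5 UMIs gave 5.53% and 8.72% (3.20 points), and no second marker 13.6% and 17.7%.

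A minimum of 20 UMIs gave 767 genes higher in stem cells. Leaving the mitochondrial and most abundant genes out of the totals gave 244 higher, and moved the share of higher genes among those called from 45.3% to 25.3%. Between the libraries a minimum of 50 UMIs gave 378 higher and 441 lower, a minimum of 400 gave 43 and 79, the mean of per-cell CPM gave 300 higher, and ratios not centred gave 300 higher and 192 lower. Stem cells without a UMI of Mki67 or Top2a (54 WT, 67 TKO) gave 89 higher and 54 lower, with the MHC class II list at -1.08 and the interferon list at -0.85.

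Relative to the median, the stem marker list (0.049) and the S phase list (-0.048) lay so near 0 that their sign varied, to -0.023 with 2 Lgr5 UMIs and to 0.069 at a minimum of 400 UMIs. Further values that changed sign were these. The Paneth cell list was at 0.29 after thinning, 0.029 after the split and 2.34 in the cells without Mki67 or Top2a, where the enteroendocrine list was at 1.12, Retnlb at 3.15, Ang4 at 1.53 and AA467197 at 0.17. Fabp6 was at -0.51 after thinning, -0.072 with 2 Lgr5 UMIs and -0.92 with no second marker, and Gm15284 at 0.18 after thinning. Gcg was at -1.79 after the split, -4.03 with 2 Lgr5 UMIs and -0.55 with cells rich in markers of another class left out, an alternative added after the data were seen. Without the 5 richest cells of each gene, also added later, 185 of 194 higher and 251 of 258 lower genes kept their call. Further genes were called only in this setting, which gave 261 higher and 322 lower. No paired analysis was possible because each genotype has 1 library and the labels give no replicate numbers.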

Other observations

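Some genes outside the fixed lists were chosen after their values had been seen. Sgk1, a kinase that PI3K signals and glucocorticoids control, gave 36 UMIs in WT and 199 UMIs in TKO stem cells, or 8.32 and 46.1 CPM, a log2 ratio of 2.45 (1.95 to 3.02). It was present in 34 of 359 WT and 120 of 315 TKO stem cells, and its log2 ratio in other cells was 1.64. The hemoglobin genes Hba-a1 (1 and 118 UMIs) and Hbb-bs (13 and 179 UMIs) were also higher in TKO, but 113 and 163 of their TKO UMIs came from a single cell each.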
